A study of Mus musculus with 27 samples.

Results

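The 10 genes described here encode the machinery by which B cells load and display antigen on major histocompatibility complex (MHC) class II molecules. They were taken by name from a table of 30735 genes, and all 10 were found: H2-Aa, H2-Ab1 and H2-Eb1, H2-DMa, H2-DMb1, H2-DMb2, H2-Oa, H2-Ob, Cd74 and Ciita. RNA had been sequenced from mouse B cells purified by the surface antigen B220. A resting group held 4 samples of untreated spleen B cells from healthy mice, 1 each of the wt, cr, co and hv genotypes. An LPS group held 4 samples of the same genotypes and organ, stimulated for 2 days with LPS (lipopolysaccharide, a bacterial product that drives B cells to divide). The remaining 19 samples were B-cell lymphomas of mice transgenic for c-myc in an immunoglobulin heavy chain (Igh) context, 12 from lung, 4 from mesenteric and 3 from peripheral lymph nodes. The labels describe the cr, co and hv mice of all 3 groups as c-myc Igh transgenic and the wt mice as not, and do not say what cr, co and hv stand for. By line, 7 lymphomas were hv, 7 cr and 4 co, and 1 lung lymphoma, T39, was titled hv but described as CO. Strain and age, and whether the samples came from separate mice, are not given in the labels, so the p-values rest on the variation among these libraries only. All non-malignant cells were splenic and no lymphoma was, so malignancy and organ cannot be told apart, nor can LPS and the 2 days of stimulation.

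Classical class II molecules are heterodimers of an alpha and a beta chain that present peptides to CD4+ T cells, and in B cells they are made constitutively. The invariant chain, encoded by Cd74, accompanies them to endosomes, where cathepsin S trims it to a remnant in the peptide groove. H2-DM then exchanges this remnant for antigenic peptides, and H2-DO, a B-cell-rich relative, restrains H2-DM. Transcription of the classical class II genes depends on CIITA, the class II transactivator. It docks on a complex of RFX, NF-Y and CREB factors assembled at the X and Y boxes of class II promoters.

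8 of the 10 genes lie within 1 stretch of chromosome 17 in the GRCm38 coordinates of the deposited table, from H2-Oa to H2-Eb1 (chr17:34092340-34316199). Ciita is at chr16:10488178-10527564. RefSeq promoter windows (GRCm38.p6, 250 bases before to 50 after a start) were matched for 7 genes. The letters ATTGG, the core of the Y box, were searched on both strands and were present in windows of all 7, against 37.4% of 32851 windows of the same length. The longer TGATTGG, which contains ATTGG and was chosen after the windows were read, was found for 6 genes and in 7.82% of all windows. An X box core, GNAAC and after any 3 bases TG, followed 20 to 40 bases on by ATTGG on the same strand was found for H2-Eb1, H2-DMb1 and H2-Ob, and in 0.250% of all windows. The 50-base stretches are printed because they put the 2 H2-DO genes, which had the largest changes of the 10 after LPS, beside classical and H2-DM genes. Capitals mark the X core, where its letters were present, and ATTGG.
H2-Aa, chr17:34287864-34287913, minus strand: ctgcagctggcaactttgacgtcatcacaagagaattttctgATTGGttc
H2-Eb1, chr17:34305766-34305815, plus strand: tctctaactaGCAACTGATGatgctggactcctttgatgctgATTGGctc
H2-DMb2, chr17:34145117-34145166, plus strand: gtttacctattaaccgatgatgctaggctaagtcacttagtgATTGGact
H2-Oa, chr17:34092294-34092343, plus strand: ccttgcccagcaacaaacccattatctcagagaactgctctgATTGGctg
H2-Ob, chr17:34238806-34238855, plus strand: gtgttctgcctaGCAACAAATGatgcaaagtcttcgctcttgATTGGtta
H2-Oa and H2-Ob thus shared the Y core while the X core letters were found in the H2-Ob window only. A match describes letters and not a bound site, and a missing match says only that these letters were not in the window.

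Resting B cells held the class II genes among their abundant transcripts. The values are TPM, a relative abundance of transcripts that is scaled to a fixed total per library, corrected for transcript length and summed here over the transcripts of a gene. Summed over the 10 genes, the level was 11199 to 20974 TPM in resting cells, 2765 to 4472 TPM after LPS and 1808 to 13756 TPM in the lymphomas. These sums amounted to 1.57% ± 0.402 of all TPM in resting cells (SD, n = 4), 0.365% ± 0.0701 after LPS (SD, n = 4) and 0.518% ± 0.354 in lymphomas (SD, n = 19). The lymphomas thus ranged from below every LPS sample to within the range of resting cells, and the resting and LPS groups did not overlap. The order of the genes by TPM in resting cells began with Cd74 and H2-Aa, followed by H2-Ab1 and H2-Eb1, then H2-DMb2 and H2-Ob, and ended with Ciita in each resting sample. H2-Ab1 and H2-Eb1, at 1958 ± 400 and 1863 ± 473 TPM (SD, n = 4), had means closer than the spread between samples, as did H2-Oa and H2-DMb1 at 184 ± 53.6 and 155 ± 44.6 TPM (SD, n = 4), although within each of the 4 samples the first of each pair was the higher.

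**Figure D1:**
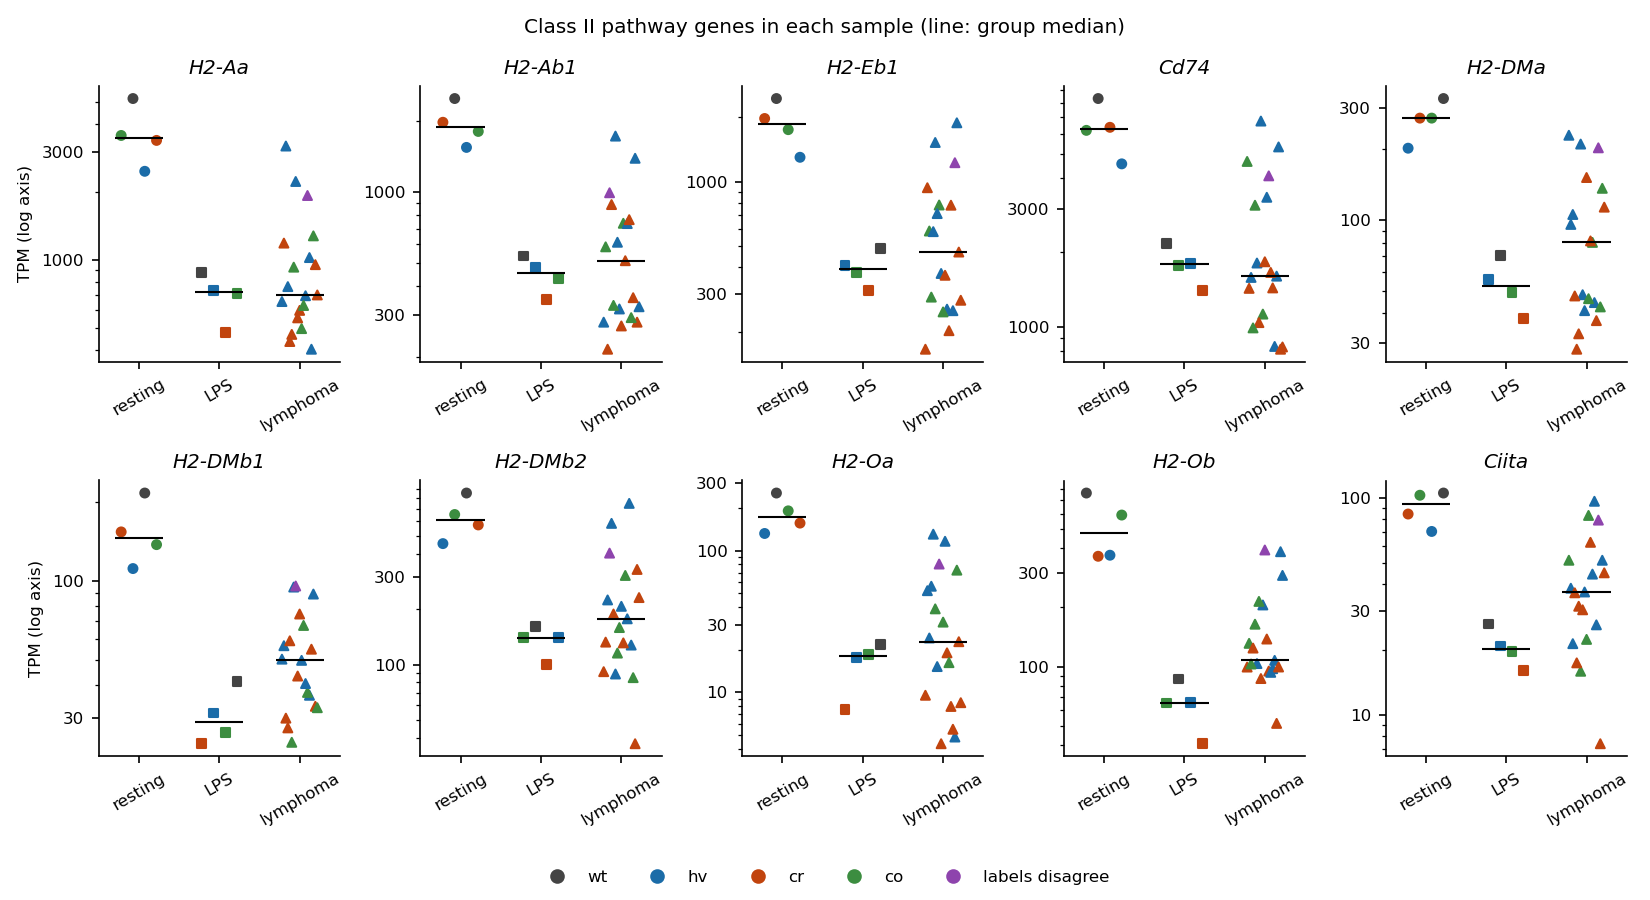
TPM of each of the 10 genes (vertical axes, logarithmic) in the 4 resting, 4 LPS and 19 lymphoma samples, coloured by the genotype or line in the labels, with the group median as a line. For all 10 genes each LPS sample lies below each resting sample, while the lymphomas spread widely and reach the resting range for 8 of the 10, H2-Oa and H2-DMb1 being the exceptions.

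Low TPM values implied libraries of roughly 11531400 to 32032600 read pairs (median 21464200), which put the smallest H2-Oa value on about 61 read pairs and the smallest value of each other member on at least 542. A repeat-like transcript, Gm10800, took over 1% of TPM in 4 libraries, up to 18.6% in LPS cr. These were resting wt, LPS cr, LPS hv and mesenteric node cr lymphoma T6, and results that changed without them are marked. Another repeat-like gene, Gm20594, took a larger share in most libraries, from 10.9% (LPS cr) to 34.3% (mesenteric node cr lymphoma T35) of TPM. B-cell transcripts were present in all groups, which does not measure purity: Cd79a was at 339 to 719 TPM in resting cells, 169 to 226 after LPS and 175 to 547 in lymphomas. Other cells differed too. Over 10 dendritic cell markers, cells that also express class II, the summed level was 31.1 to 144 TPM in resting cells, 18.2 to 40.6 after LPS and 2.47 to 50.6 in lymphomas. Over 12 macrophage markers it was 191 to 1120, 6.17 to 56.9 and 12.6 to 317 TPM, and over 7 erythroid markers 11675 to 111727, 164 to 2213 and 16.2 to 1128 TPM. These are bulk samples, in which fewer cells of a type and less RNA per cell cannot be told apart.

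LPS was accompanied by lower levels of the whole set. All 10 genes fell (limma on log2(TPM + 1), Benjamini-Hochberg adjusted p under 0.05), against 33.0% of the 11999 genes tested that were called lower, 25.2% called higher and 58.2% called in either direction. The median log2 fold change was -2.25 over the 10 genes and -0.16 over all genes tested. In all 10 genes each LPS sample was below each resting sample, which held for 29.5% of all genes tested.

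The classical chains and the invariant chain fell, Cd74 by less than H2-Aa relative to the resting level. H2-Aa, an alpha chain, was at 5182, 3383, 3558 and 2470 TPM in resting wt, cr, co and hv cells and at 879, 480, 713 and 737 TPM in the LPS samples in the same order. The highest LPS value was thus below the lowest resting value, and the log2 fold change was -2.36 ± 0.25 (SE, adjusted p = 1.03e-05). H2-Ab1 and H2-Eb1, beta chains, fell by 2.12 ± 0.20 and 2.21 ± 0.22 on the log2 scale (SE). Cd74 was at 8336, 6381, 6202 and 4544 TPM in resting cells and at 2160, 1396, 1765 and 1803 TPM after LPS. Its log2 fold change of -1.82 ± 0.22 (SE, adjusted p = 2.39e-05) was the smallest of the 10. The ratio of Cd74 to H2-Aa was 1.61 to 1.89 in resting cells and 2.45 to 2.91 after LPS, with no overlap.

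The peptide editor and its inhibitor differed in size of change. H2-DMa, H2-DMb1 and H2-DMb2, the chains of H2-DM, fell by 2.32 ± 0.22, 2.28 ± 0.23 and 2.20 ± 0.22 on the log2 scale (SE). H2-DMb1 and H2-DMb2 are close relatives, and the division of reads between them by the authors' counting is uncertain. H2-Oa, the alpha chain of H2-DO, was at 256, 157, 191 and 133 TPM in resting wt, cr, co and hv cells and at 21.9, 7.56, 18.4 and 17.6 TPM after LPS. It had the largest change of the 10, with a log2 fold change of -3.46 ± 0.31 (SE, adjusted p = 9.22e-06). H2-Ob, the beta chain, was at 763, 364, 589 and 368 TPM in resting cells and at 86.5, 40.5, 65.4 and 66.0 TPM after LPS. Its log2 fold change was -2.97 ± 0.29 (SE, adjusted p = 9.39e-06). Set against H2-DM within each sample, H2-Oa was 0.578 to 0.777 times H2-DMa in resting cells and 0.200 to 0.373 times after LPS. H2-Ob was 0.634 to 0.902 times H2-DMb2 in resting cells and 0.406 to 0.535 times after LPS. Neither ratio overlapped between the groups, and no p-value was computed for these ratios.

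Ciita, the regulator, was at 105, 84.3, 103 and 70.1 TPM in resting wt, cr, co and hv cells and at 26.3, 16.1, 19.6 and 20.8 TPM after LPS. Its log2 fold change was -2.08 ± 0.20 (SE, adjusted p = 5.03e-06), and within a genotype the resting level was 3.37 to 5.25 times the LPS level. Most dendritic cell markers were lower as well, with 6 of 8 tested markers falling, and 6 of the 10 (Itgax, Xcr1, Clec9a, Cd209a, Clec10a and Cd8a) were under 1 TPM in each LPS sample. Flt3, another of these markers, was at 6.976, 21.38, 4.186 and 4.167 TPM in resting wt, cr, co and hv cells. After LPS it was at 31.04, 11.16, 23.03 and 16.86 TPM in the same order, higher in all genotypes but cr. Flt3 thus made up most of the summed dendritic cell markers of each LPS sample, which were 40.6, 18.24, 26.8 and 20.91 TPM. Against the same 33.0%, macrophage markers fell in 11 of 12 cases and B-cell markers in 8 of 10. Summed B-cell markers were at 2933 to 5513 TPM in resting cells and 1248 to 2404 TPM after LPS. The part of these cells in the class II values was not tested.

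**Figure D2:**
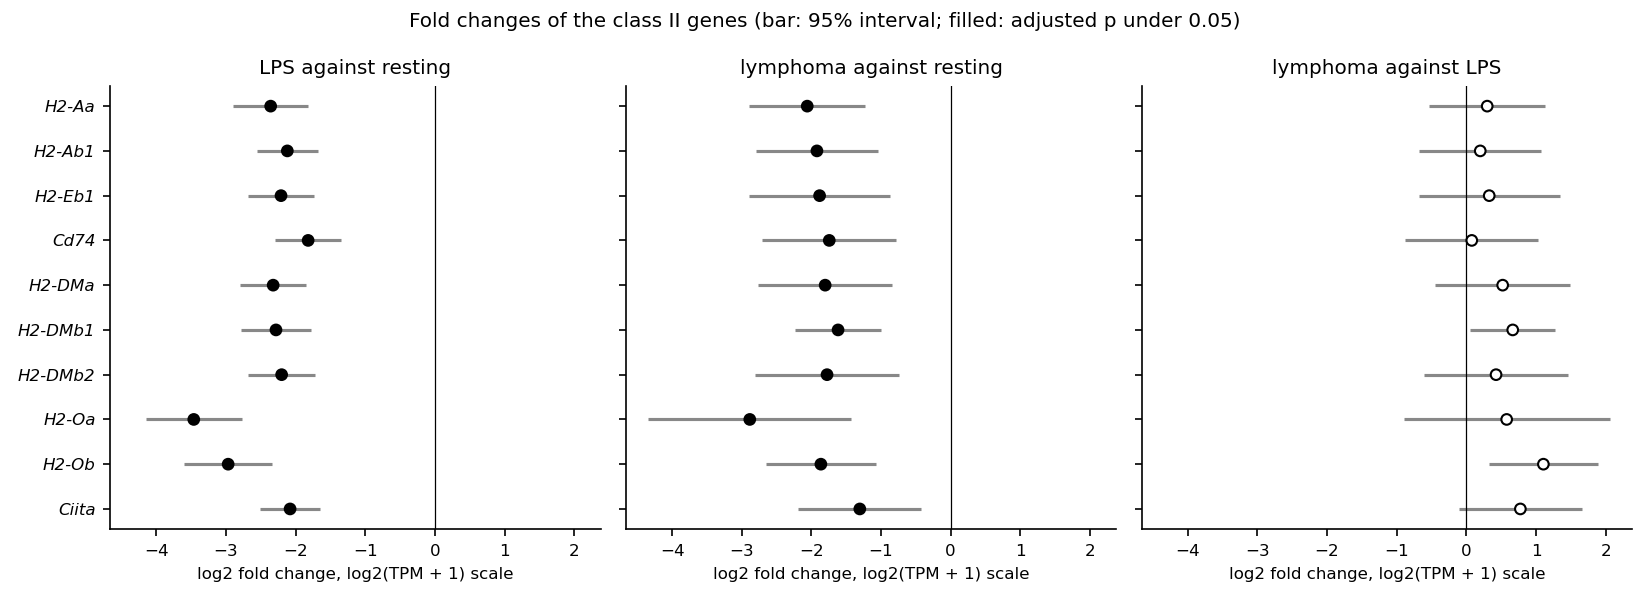
Log2 fold changes of the 10 genes on the log2(TPM + 1) scale (horizontal axes) for the LPS and the lymphoma samples, each against resting cells, and for lymphomas against the LPS samples, with 95% intervals, filled where the adjusted p was under 0.05. All 10 points are filled and below 0 in the first and second panels, and none is filled in the third, where H2-Ob at 1.11 is the farthest from 0.

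Lymphomas also held less class II RNA than resting cells, but unevenly. All 10 genes fell, against 17.4% of the 13239 genes tested that were called lower and 31.9% in either direction, with a median log2 fold change of -1.83 over the 10 genes and -0.06 over all genes. H2-Oa and H2-DMb1 were below the lowest resting sample in each of the 19 lymphomas, 2 of 10 genes against 4.92% of all genes tested. For the other 8 genes, 1 to 3 lymphomas reached the resting range, and these were always among peripheral node hv lymphoma T15, lung hv lymphoma T16, lung co lymphoma T30 and lung lymphoma T39.

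Among the classical chains, H2-Aa had a lowest, median and highest lymphoma value of 404, 701 and 3195 TPM, and only the peripheral node hv lymphoma T15 was above the lowest resting value of 2470. The log2 fold change was -2.06 ± 0.41 (SE, adjusted p = 0.000405). H2-Ab1 ranged from 215 to 1728 TPM with a median of 511 and fell by 1.92 ± 0.42 on the log2 scale (SE). H2-Eb1 ranged from 166 to 1879 TPM with a median of 471 and fell by 1.88 ± 0.49 (SE). Cd74 ranged from 812 to 6761 TPM with a median of 1601, and fell by 1.74 ± 0.47 (SE, adjusted p = 0.00594). Lung hv lymphoma T16 held more Cd74 than 3 of the 4 resting samples.

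For H2-DM, H2-DMa ranged from 28.1 to 230 TPM, H2-DMb1 from 24.2 to 95.6 and H2-DMb2 from 37.2 to 751, and they fell by 1.80 ± 0.47, 1.62 ± 0.30 and 1.77 ± 0.50 on the log2 scale (SE). H2-DMb2 had an adjusted p of 0.00866, which became 0.0532 without the libraries rich in Gm10800. H2-Oa had a lowest, median and highest value of 4.33, 22.8 and 131 TPM, and its log2 fold change of -2.88 ± 0.71 (SE, adjusted p = 0.00308) was the largest and the least precise of the 10. H2-Ob ranged from 51.4 to 392 TPM with a median of 108 and fell by 1.86 ± 0.38 (SE, adjusted p = 0.000607).

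Ciita was at 7.38, 36.9 and 96.5 TPM in the lowest, median and highest lymphoma, and 3 lymphomas (lung hv T16, lung co T30 and lung T39) were not below the lowest resting value of 70.1. Its fall of 1.30 ± 0.43 on the log2 scale (SE, adjusted p = 0.0222) was the smallest of the 10. The size of the fall was 1.14 to 1.45 over 15 alternatives, but the call was lost in some: the adjusted p was 0.0805 without resting wt, 0.0531 without resting cr, 0.0700 without resting co, 0.0605 with separated names only and 0.0915 without the libraries rich in Gm10800. Dendritic cell markers fell in 7 of 9 tested cases and macrophage markers in 11 of 12, against 17.4% of all genes called lower. B-cell markers fell in 3 of 10 (Ebf1, Cd22 and Ptprc), nearer to that share. Peripheral node lymphoma T15, highest of the lymphomas for 6 of the 10 class II genes, also had the highest summed dendritic cell markers of any lymphoma (50.6 TPM) and the highest summed B-cell markers (4133 TPM). It held 510.5 TPM of Krt18, an epithelial keratin, which made up nearly all of its 511 TPM of summed lung epithelium markers. The part of other cells in these values was not tested.

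Set directly against LPS-treated cells, none of the 10 genes passed the threshold in limma's test, against 13.8% of 12880 genes called in either direction, 5.27% higher and 8.56% lower. For none of the 10 was each lymphoma below each LPS sample, which held for 2.05% of all genes tested. 2 of the 10 had an unadjusted p under 0.05. H2-DMb1 had a log2 fold change of 0.67 (95% interval 0.05 to 1.28, adjusted p = 0.141). H2-Ob had one of 1.11 ± 0.38 (SE, 95% interval 0.33 to 1.89, adjusted p = 0.0518), and 18 of 19 lymphomas were above the highest LPS sample of 86.5 TPM. The H2-Ob call lay on the threshold: 7 of 15 alternatives passed it, with adjusted p-values of 0.0124 to 0.452 over all 15. The intervals of the other genes were wide, for example -0.53 to 1.13 for H2-Aa, -0.88 to 1.03 for Cd74, -0.90 to 2.06 for H2-Oa and -0.11 to 1.66 for Ciita, so that differences within them were not excluded. The LPS and lymphoma comparisons with resting cells share the same 4 resting samples.

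The spread among single lymphomas was wide for most of the set. The standard deviation of log2(TPM + 1) over the 19 lymphomas was 0.59 for H2-DMb1, 0.76 for H2-Ob, 0.82 to 1.03 for H2-Aa, H2-Ab1, Ciita, Cd74, H2-DMa, H2-Eb1 and H2-DMb2, and 1.47 for H2-Oa. Over 12654 genes the median was 0.51, and H2-Oa varied more than 95.4% of them. The highest lymphoma held 30.3 times as much H2-Oa as the lowest, 20.2 times as much H2-DMb2 and 13.1 times as much Ciita, but 3.95 times as much H2-DMb1. In resting cells the same standard deviations were 0.27 to 0.53. Mesenteric node cr lymphoma T1 was the lowest for 6 of the 10 genes and peripheral node hv lymphoma T15 the highest for 6.

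4 lymphomas combined intermediate classical class II with little H2-Oa. Lung cr lymphoma T14, lung hv lymphoma T7, mesenteric node cr lymphoma T6 and mesenteric node cr lymphoma T20 held H2-Oa at 7.94, 4.83, 4.33 and 5.48 TPM, the lowest values of the 19. Little H2-Oa alone did not set them apart, as mesenteric node cr lymphomas T35 and T1 followed at 8.44 and 9.52 TPM. H2-Eb1 in the 4 was at 938, 586, 471 and 778 TPM, at or above the lymphoma median. H2-Ob, at 138, 108, 99.5 and 124 TPM, was 17.4, 22.3, 23.0 and 22.7 times H2-Oa in these lymphomas. The next ratio among lymphomas was 11.8 (mesenteric node cr lymphoma T35), and resting and LPS samples lay between 2.32 and 5.36. Cd74 was 1.21, 1.09, 1.16 and 1.09 times H2-Aa in the same 4, below all other samples, of which the lowest was 1.57 (peripheral node co lymphoma T2) and the highest 4.99 (lung co lymphoma T30).

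The same 4 lymphomas were nearly without Ctss, which encodes cathepsin S. Ctss was at 3.52, 5.87, 1.91 and 3.32 TPM in them, between 99.1 and 466.4 TPM in the remaining lymphomas, 401 to 574 in resting cells and 123 to 169 after LPS. The lowest of these values rested on about 34 read pairs. Cd40, a costimulatory receptor that receives T-cell help, was also lowest in these 4, at 1.33, 1.28, 1.02 and 1.25 TPM. Other lymphomas were close in Cd40, the next being mesenteric node cr T1 at 2.29 TPM and lung co T9 at 4.22 TPM. The highest was 56.2 TPM. Ciita, at 62.4, 36.9, 31.7 and 45.2 TPM, was not low in the 4. Over 13371 genes the library most like each of the 4 was another of the 4 (Pearson r of log2 values 0.959 to 0.973). They came from lung and mesenteric node and from the cr and hv lines, but likeness across lines was not particular to them. Lung hv lymphomas T1, T5 and T14 and peripheral node co lymphoma T2 were each most like lung cr lymphoma T16 (r 0.949 to 0.961). The 4 lymphomas low in Ctss were singled out after their values were seen, and no test was made of them.

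**Figure D3:**
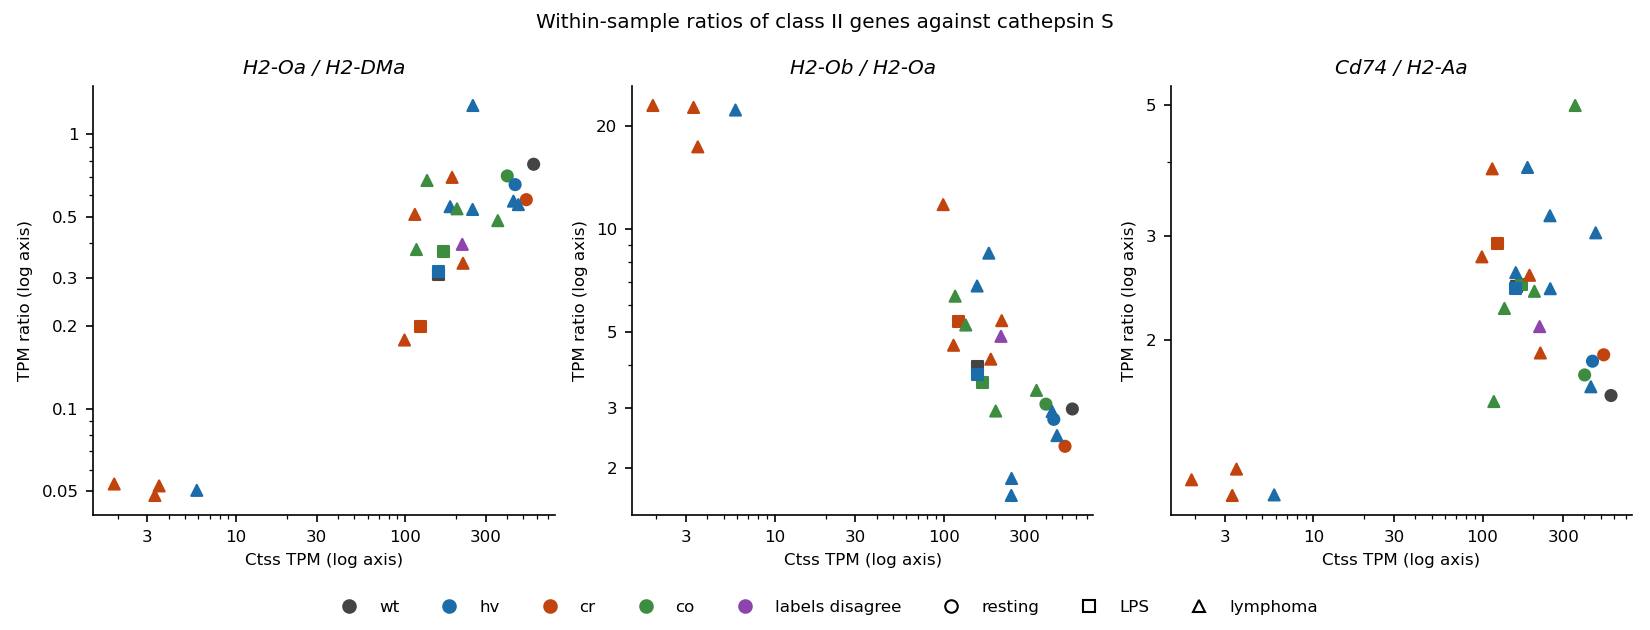
Within-sample TPM ratios H2-Oa to H2-DMa, H2-Ob to H2-Oa and Cd74 to H2-Aa (vertical axes, logarithmic) against Ctss (horizontal axes, logarithmic) in all 27 samples, shaped by group and coloured by genotype or line. 4 lymphomas with Ctss between 1.91 and 5.87 TPM sit apart from the other 23 samples in each panel.

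Between the lines and sites of the lymphomas no class II gene differed beyond the spread. In a fit with line and site as terms over the 18 lymphomas of 1 labelled line, 0 of the 10 genes passed in any of 4 contrasts by limma's test and 0 had an unadjusted p under 0.05. The share of all 12480 genes called was 0% for hv against cr, for co against the mean of hv and cr, and for mesenteric node against lung, and 0.016% for peripheral node against lung. At an unadjusted p under 0.05 there were 170, 406, 209 and 628 genes in these contrasts. H2-Oa had the widest interval, with a log2 difference of 1.05 for hv minus cr (95% interval -0.61 to 2.71) and -1.08 for mesenteric node minus lung (-2.85 to 0.69). By line, H2-Oa was at 4.83 to 131 TPM in hv lymphomas, 4.33 to 22.8 in cr and 16.2 to 72.9 in co. By site, the 4 mesenteric node lymphomas, all of the cr line, held 4.33 to 9.52 TPM, and the 3 cr lymphomas of lung 7.94 to 22.8 TPM. For Ciita the hv minus cr difference was 0.37 (-0.93 to 1.66).

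Ciita and the class II genes varied together across lymphomas. Over the 19 lymphomas, Pearson's r of log2(TPM + 1) with Ciita was 0.81 for H2-Eb1, 0.79 for H2-DMb2 and H2-DMa, 0.78 for H2-Ab1, 0.76 for H2-Aa and 0.75 for H2-DMb1 (each with a Benjamini-Hochberg adjusted permutation p of 0.00018 over the 9 relations). It was 0.68 for Cd74 (adjusted permutation p = 0.0018) and 0.64 for H2-Ob (adjusted permutation p = 0.00352). H2-Oa was the exception at 0.43 (adjusted permutation p = 0.0626). Spearman's rho ranged from 0.59 (H2-Ob, adjusted permutation p = 0.0101) to 0.85 (H2-Aa, adjusted permutation p = 0.00018) for those 8 genes and was 0.42 for H2-Oa (adjusted permutation p = 0.0724). The 19 points share the scaling of TPM within a library, and the share of all genes that would pass the same test was not computed. H2-Ob, which passed, ranked 980 of 12653 other genes by r with Ciita, so many genes outside the set had an r as high.

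Without the lymphomas farthest from the Ciita median, mesenteric node cr T1 and lung hv T16, r was 0.56 to 0.74 for the 7 genes that still passed. For H2-Ob it was 0.44 (adjusted permutation p = 0.0849) and for H2-Oa 0.29 (adjusted permutation p = 0.267). The lymphoma names were written in 2 styles, with parts joined (9, all of lung) or separated (10), which was treated as a possible batch. Within the separated names r was 0.72 to 0.91 for 8 genes that passed and 0.55 for H2-Oa. Within the joined names r was 0.18 to 0.78 and none passed (smallest adjusted exact permutation p = 0.0975), while 4 had an unadjusted p under 0.05.

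**Figure D4:**
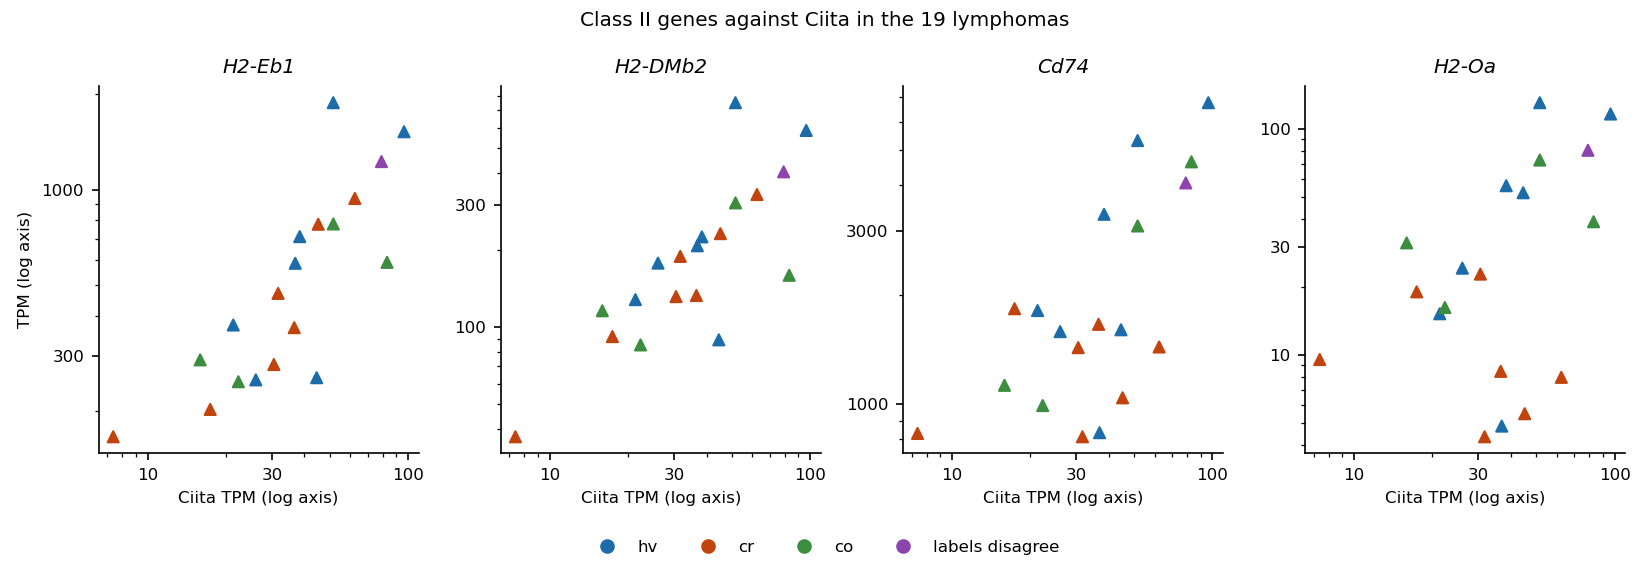
TPM of H2-Eb1, H2-DMb2, Cd74 and H2-Oa (vertical axes, logarithmic) against Ciita TPM (horizontal axes, logarithmic) in the 19 lymphomas, coloured by line. H2-Eb1 and H2-DMb2 follow Ciita from 7.38 to 96.5 TPM, with r of 0.81 and 0.79, while H2-Oa scatters, with r of 0.43.

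Of 12653 other genes, those most like Ciita across the 19 lymphomas by Pearson's r were Rubcn (0.89), BC064078 (0.89), Tnfrsf26 (0.89), Phf21a (0.88), Dtx3l (0.88), Btbd2 (0.87), Ripor2 (0.87) and Pip5k1c (0.87). In this order H2-Eb1 ranked 53, H2-DMb2 78, H2-DMa 99, H2-Ab1 119, H2-Aa 156 and H2-DMb1 183. Cd74 ranked 622, H2-Ob 980 and H2-Oa 3556, so genes outside the class II set followed Ciita more closely than any member did. These are descriptions over 19 libraries, with no test.

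Factors that act with or upstream of CIITA were examined next. Of 8 factors of the promoter complex 3 were called after LPS, against 58.2% of all genes: Nfyb and Rfxap rose after LPS and Rfx5 fell (log2 fold change -1.27 ± 0.20, SE, adjusted p = 0.000188). Rfx5 was at 34.1 to 52.5 TPM in resting cells and 13.6 to 23.4 TPM after LPS. In lymphomas only Rfxap passed, rising by 0.70 ± 0.22 (SE, adjusted p = 0.0180), 1 of 8 against 14.5% of all genes called higher. Of 12 other regulators, 8 fell and 2 rose after LPS, against 33.0% and 25.2% of all genes. Zbtb32, a repressor that has been tied to Ciita in activated B cells, was at 1.49 to 4.62 TPM in resting cells and 108 to 222 TPM after LPS, a log2 fold change of 5.13 ± 0.30 (SE, adjusted p = 5.4e-07). Prdm1, the plasma cell factor Blimp-1, which silences Ciita during plasma cell differentiation, rose by 2.27 ± 0.29 (SE), from 0.88 to 3.58 TPM in resting cells to 8.40 to 17.1 TPM. Among those that fell were Bach2 and Ebf1, both of the mature B-cell program, by 2.66 ± 0.40 and 2.09 ± 0.36 (SE).

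Among the lymphomas, Zbtb32 ranged from 0.311 to 250 TPM, with no values between 18.5 and 151 TPM. The 6 lymphomas above that gap were lung T39, peripheral node hv T8, lung co T34, lung hv T16, peripheral node hv T15 and lung co T30. They held 250, 237, 209, 207, 188 and 151 TPM of Zbtb32 and 4064, 3331, 3093, 6761, 5318 and 4646 TPM of Cd74. Those were the 6 highest Cd74 values of the 19, the next being 1830 TPM. Ciita and H2-Eb1 did not divide in the same way. Ciita was at 38.4 TPM in peripheral node hv T8, below 62.4 TPM in lung cr T14. H2-Eb1 was at 590 TPM in lung co T30, below 938 TPM in lung cr T14 and 778 TPM in mesenteric node cr T20. The co-occurrence of Zbtb32 and Cd74 was noticed in the values and was not tested. Across all lymphomas 5 of the 12 regulators fell against resting cells, with 17.4% of all genes called lower, and none rose. Those that fell included Bcl6 at -2.30 ± 0.35, Ebf1 at -1.50 ± 0.43 and Bach2 at -1.16 ± 0.44 (log2 fold changes, SE).

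Among genes of antigen processing and display beyond the 10, the shares of all genes called lower were again 33.0% after LPS and 17.4% in lymphomas. Of 10 endosomal enzymes, 7 fell after LPS and none rose, with log2 fold changes of -2.34 ± 0.40 for Ctsb, -1.67 ± 0.19 for Ctss, -1.59 ± 0.20 for Ctsh and -1.54 ± 0.20 for Ctsa (SE). In lymphomas 2 fell, a share near that of all genes, Ctsb by 1.62 ± 0.30 and Ctsl by 0.92 ± 0.34 (SE). Of 6 genes of class II surface turnover and costimulation, March8, March1 and Cd86 fell after LPS and Cd80 rose. March1 and March8 encode ubiquitin ligases that remove class II and CD86 from the surface, and their log2 fold changes were -3.53 ± 0.34 and -3.69 ± 0.61 (SE). In lymphomas 5 of the 6 fell, among them Cd83, which opposes March1 (-3.65 ± 1.20, SE, adjusted p = 0.0226), and Cd40 (-2.70 ± 0.82, SE, adjusted p = 0.0143). Cd40 was also lower in lymphomas than after LPS, by 2.61 ± 0.84 (SE, adjusted p = 0.0391). Set against LPS samples, 3 of the 10 enzymes were higher in lymphomas (5.27% of all genes were), Ctsa by 1.21 ± 0.25, Ctsd by 0.75 ± 0.24 and Ctsb by 0.72 ± 0.24 on the log2 scale (SE), and of the 12 regulators Bach2 and Zxdc were higher and Prdm1 and Irf4 lower. Of 6 tested neighbours in the class II region, H2-Eb2, a lesser beta chain gene, and the peptide transporter genes Tap1 and Tap2 fell after LPS and Psmb8, an immunoproteasome subunit, rose, 4 of 6 against 58.2% of all genes called in either direction. H2-Eb2 fell by 1.90 ± 0.22 after LPS and by 1.64 ± 0.49 in lymphomas (SE), where it alone of the 6 was called. These shares were near those of all genes.

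The Cd74 transcripts also differed in their proportions. The gene lies on chromosome 18, and the table lists a short transcript of 1218 bases and a long one of 1410 bases, which correspond by length to the known p31 and p41 forms of the invariant chain, the longer of which carries an added exon that encodes a cathepsin inhibitor domain. The long transcript made up 17.9, 15.3, 13.9 and 15.4% of Cd74 TPM in resting wt, cr, co and hv cells and 10.5, 7.27, 7.12 and 7.91% in the LPS samples. In lymphomas its lowest, median and highest share was 5.34, 6.97 and 11.2%. The means were 15.6% ± 1.67 in resting cells (SD, n = 4), 8.20% ± 1.57 after LPS (SD, n = 4) and 7.68% ± 1.67 in lymphomas (SD, n = 19). Each LPS sample and each lymphoma was thus below each resting sample. A two-sided exact permutation test gave p = 0.0286 for LPS against resting, the smallest that 4 against 4 samples allow (adjusted over 3 comparisons, 0.0429). It gave p = 0.000113 for lymphoma against resting, the smallest possible (adjusted 0.000339), and p = 0.58 for lymphoma against LPS. Without the libraries rich in Gm10800 the LPS difference of -7.42 percentage points became -6.05, with an exact permutation p of 0.1, the smallest that the remaining samples allow. This share was examined after its values were seen, so the p-values cannot be read as tests set in advance. They were adjusted over the 3 comparisons only, and how many other genes show such a separation of transcript shares was not computed. The share rests on the division of reads between overlapping transcripts by the authors' counting, and total Cd74 fell in the same comparisons.

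**Figure D5:**
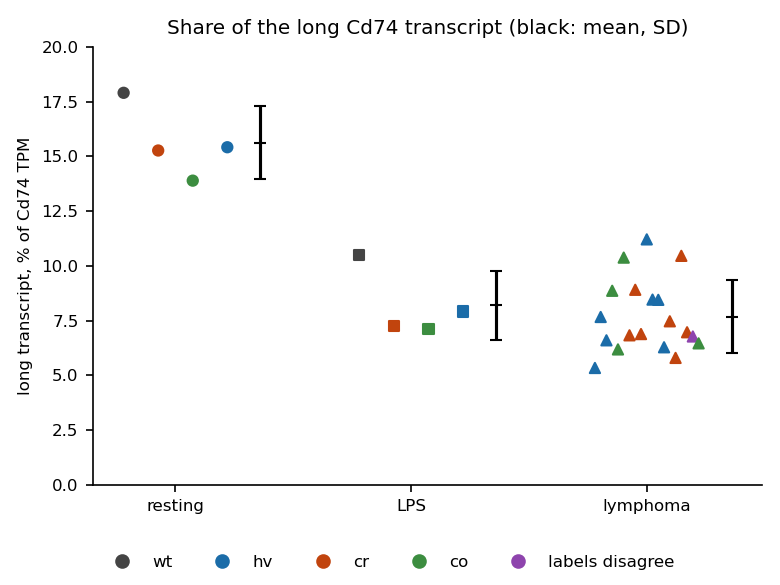
Share of the long transcript in Cd74 TPM (vertical axis, percent) in the resting, LPS and lymphoma samples, coloured by genotype or line, with the mean and SD in black. The resting samples lie at 13.9 to 17.9%, above all LPS samples and lymphomas, of which the highest is at 11.2%.

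Partial H2-Ab1 transcripts showed a like difference after LPS, with shares of H2-Ab1 TPM of 10.6 to 15.2% in resting cells and 3.62 to 5.13% in LPS samples. For H2-Ab1 the lymphomas ranged from 1.18 to 14.4% and overlapped both groups. Partial H2-Aa transcripts were at 7.75 to 10.4% of H2-Aa TPM in resting cells and 4.79 to 6.01% in LPS samples. In lymphomas the H2-Aa share ranged from 2.44 to 16.1%. A lower share after LPS was thus not particular to Cd74.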

How the data were processed

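RNA of 27 samples of B220-purified mouse B cells was measured as stranded, ribosomal-RNA-depleted libraries sequenced as read pairs, according to the labels' protocols. The tools were FastQC and kallisto 0.43 and the build mm10 (GRCm38), per the submitters' processing notes. The transcript annotation release and the strand setting were not given in the sources used here. Overlapping genes and antisense partners therefore cannot be separated. TPM values for 88198 transcripts had been deposited by the authors. They were summed to 30735 genes; symbols were matched by Ensembl identifier and 740 genes had none. Depth was estimated from the steps of TPM times effective length (60.9 to 75.7% of low values whole within 0.02 reads) and weighted nothing.

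Groups came from the labels. limma 3.58.1 in R 4.3.3, with trend and robust settings, was fitted to log2(TPM + 1) of every gene that reached 1 TPM in 4 or more of the samples compared, with a Benjamini-Hochberg threshold of 0.05; this scale understates changes of low genes. On simulated data a log2 change of 2 was recovered in 98% of planted genes for LPS against resting, 92% for lymphoma against resting and 88% for lymphoma against LPS. For a log2 change of 1 these were 68, 53 and 47%, and 7.78, 4.61 and 5.59% of calls were false. The simulation changed far fewer genes than were called in the data, left out genes of low level and used independent noise. Its rates therefore need not hold for the fits reported. Correlations used 100000 resamples, exact enumeration within 9 lymphomas. The class II genes and other lists were chosen with earlier results of these data known. The rule for other names was up to 4 called genes per list and main comparison with the largest changes (the 2 with the smallest p where none was called), and the 8 genes most like Ciita. Cd40, Ctss, Flt3, Zbtb32, Krt18, the transcript shares and single lymphomas were also named after their values were seen. Alternatives were another pseudocount, no filter, 2 other scalings, plain limma, left-out libraries, sites and name styles, a genotype block and, added after seeing the data, the most abundant transcript only and the removal of lymphoma T39. The software was data.table (version 1.17.8), matplotlib 3.10.9, scipy 1.17.1, numpy 2.4.6 and pandas 2.3.3 under Python 3.11.15.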

Additional observations from a re-analysis of the deposited data

How the results depend on the processing

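All 10 genes were called lower after LPS in each of 16 alternatives, including 8 that left out 1 sample (10 to 10 genes). With the genotype label as a replicate block the count was again 10. In their deviations, samples of the same genotype correlated at 0.0585 to 0.34 and samples of different genotypes at -0.397 to 0.298. The ranges overlapped, and the main fit did not pair the samples. In lymphomas against resting cells 8 to 10 genes were called over 15 alternatives and 9 to 10 when 1 resting sample was left out; the calls lost were Ciita and H2-DMb2, and with separated names only their adjusted p-values in limma were 0.0605 and 0.067. Against LPS the count rose from 0 to 1 (H2-Ob) with a pseudocount of 0.1, median-of-ratios scaling, rescaling without repeat-like and haemoglobin genes, the most abundant transcript, lung lymphomas only, joined names only or without lymphoma T39, and stayed at 0 to 0 when 1 LPS sample was left out; the cause was not tested. Without the libraries rich in Gm10800, H2-Ob was at 0.87 (adjusted p = 0.452). Between the 3 groups, signs turned for uncalled values only: H2-Ab1 at -0.14 and H2-Eb1 at -0.037 with joined names, Cd74 at -0.0053 without the libraries rich in Gm10800 and at -0.033 without LPS cr (-0.033 to 0.176 when 1 LPS sample was left out), and the long Cd74 share in lymphomas against LPS at 0.248 percentage points without LPS wt (-0.88 to 0.248). The 8 called relations with Ciita became 0 within joined names, where there were 9 lymphomas. Line and site contrasts called 0 of 10 genes in each alternative, with 0 to 0 when 1 lymphoma was left out, but signs there turned too, for example H2-Eb1 in mesenteric node against lung (-1.20 to 0.69) and Ciita in hv against cr (-0.061 to 0.83). TPM is relative: median-of-ratios scaling moved the median of all genes in LPS against resting from -0.16 to -0.027 and that of the 10 genes from -2.25 to -2.11, and rescaling moved them to -0.30 and -2.39.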

Other observations

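Within each of the resting and LPS groups, all 10 class II genes were highest in the wt sample. The wt level was 1.23 (Ciita) to 1.73 (H2-Ob) times the mean of the other resting samples, and 1.27 (H2-DMb2) to 1.52 (H2-DMb1) times that of the other LPS samples. Of all genes, 48.8% in resting cells and 54.0% after LPS were highest in wt, as were 10 and 9 of 10 B-cell markers. With median-of-ratios scaling, 9 of the 10 class II genes were highest in wt in each group, against 27.9% and 34.9% of all genes. Each genotype had 1 sample per group and no test was made, and the resting wt sample also had the lowest summed macrophage (191 TPM) and erythroid (11675 TPM) markers of the resting group.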
